A study of Mus musculus with 11 samples.

Results

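The 7 P2X purinergic receptor genes, P2rx1 to P2rx7, were followed through 11 RNA sequencing libraries of mouse hippocampal neural stem cells (NSCs). All 7 were found by symbol among the 53801 genes of the deposited tables. P2rx3 and P2rx7 were chosen by their expected counts, which were higher with 4HBP than in controls in proliferation medium, so their values in that comparison are given as a description without a test, and the other members came with them as the rest of the family. Of the 7 genes, 6 had a count above 0 in at least 1 library, and 4 (P2rx3, P2rx4, P2rx6 and P2rx7) passed the filter on low counts, as 15920 genes did in all.

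P2X receptors are trimeric cation channels that extracellular ATP opens. ATP reaches the outside of cells through damage or through release channels, and ectonucleotidases on the cell surface break it down, step by step, to adenosine, which acts on its own receptors. P2X7 needs far more ATP than the other subunits and is known for coupling to the inflammasome and to interleukin release in microglia and macrophages. P2X4 is broadly expressed, P2X3 is best known from nociceptive sensory neurons, and P2X6 forms few functional channels by itself and mostly joins other subunits.

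The NSCs came from the hippocampus of C57BL/6 mouse embryos and were grown as primary cultures. In proliferation medium, which held EGF and bFGF at 20 ng/ml each and 1% B27, 3 cultures received 1 µM 4HBP for 7 days (Proliferation_4HBP) and 3 received the ethanol vehicle (Proliferation_CTRL). In differentiation medium, with 2% B27 and without the growth factors, 3 cultures received 1 µM 4HBP for 7 days (Differentiation_4HBP) and 2 the vehicle (Differentiation_CTRL). 4HBP is 4-hydroxybenzophenone in the study's text, whereas the sample labels spell it 4-hydroxybenzoic acid. No label says whether the libraries of a group came from separate embryos or dissections, so that p-values measure the spread between these libraries only.

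Library totals lay between 20822921 and 23438463 expected counts (fragments that the quantifier RSEM assigns to a gene, shared out where they fit several genes). In a library of that depth, 3 counts, taken here as the floor of detection, are worth 0.128 to 0.144 CPM, the count scaled by the library total. The 12 microglia markers summed to 0.06 to 0.48 TPM, RSEM's level per transcript length and depth, in the 6 proliferation libraries, where Aif1, Cx3cr1, Siglech and Tmem119 were at 0 throughout, and to 1.36 to 2.72 TPM in the 5 differentiation libraries. The 10 NSC markers summed to 4289 to 5005 TPM in proliferation and 2477 to 2612 TPM in differentiation medium, against 1685 to 3042 and 7660 to 8138 TPM for the 10 markers of the oligodendrocyte lineage. Library 3 of Proliferation_4HBP stood apart from its replicates, with a mean chi-square per gene of 18.0 and 16.3 against libraries 1 and 2, which differed from each other by 4.33. These are bulk cultures, in which fewer cells of a type and less RNA per cell cannot be told apart.

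The genes sit in 5 places of the mouse genome (GRCm38, GENCODE vM21). P2rx7 (ENSMUSG00000029468, chr5:122643911-122691432, plus strand) and P2rx4 (ENSMUSG00000029470, chr5:122707544-122729738, plus strand) are neighbours 16112 bases apart. P2rx1 (chr11:72999103-73015200) and P2rx5 (chr11:73160421-73172685) lie on chromosome 11, P2rx6 on chromosome 16 (ENSMUSG00000022758, chr16:17561885-17577800, plus strand) and P2rx2 on chromosome 5 (chr5:110339812-110343212). P2rx3 (ENSMUSG00000027071, chr2:84998583-85037462, minus strand) has 5 annotated transcripts, of which 3 code for protein (1315, 1764 and 1812 bases) and 2 are short transcripts annotated as non-coding (412 and 688 bases).

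The first exon of 1 of the 2 non-coding P2rx3 transcripts, of 194 bases, lies whole within the first exon of the other and in no exon of a coding transcript, and a further 27 bases of the next exon are shared in the same way. The 194 bases, read in the direction of transcription at chr2:85033001-85033194, are shown because the length of the transcripts to which P2rx3 reads were assigned, described further on, turns on these transcripts. They lie in an intron of the 3 coding transcripts, between the exons that end at 85024991 and start at 85035181.
P2rx3 shared non-coding exon: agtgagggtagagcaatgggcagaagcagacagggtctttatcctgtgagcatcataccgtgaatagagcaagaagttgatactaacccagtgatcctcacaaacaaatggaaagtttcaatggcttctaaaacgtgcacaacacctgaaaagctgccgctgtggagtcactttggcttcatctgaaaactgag

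RefSeq entries for the bases before the transcription start were matched for 4 of the 7 genes (P2rx1, P2rx4, P2rx6 and P2rx7), not for P2rx2, P2rx3 and P2rx5. P2rx7 had 2 entries, of which the second (chr5:122650133-122650382), at a start inside the gene, held none of the motifs searched and is not printed. The first of P2rx7 and those of P2rx4 and P2rx6 are shown (GRCm38.p6, plus strand), as the members whose levels were higher (P2rx7 and P2rx4) or lower (P2rx6) with 4HBP in proliferation medium. Capitals mark matches to 5 motifs searched on both strands of the 250 bases before the RefSeq start, namely TGANTCA (AP-1), TGATGNAA (C/EBP-ATF composite), TGACGTCA (cAMP response element), a loose form of the NF-κB site (GGG, 5 free bases and CC) and GGGCGG (GC box).
P2rx7, chr5:122643677-122643910: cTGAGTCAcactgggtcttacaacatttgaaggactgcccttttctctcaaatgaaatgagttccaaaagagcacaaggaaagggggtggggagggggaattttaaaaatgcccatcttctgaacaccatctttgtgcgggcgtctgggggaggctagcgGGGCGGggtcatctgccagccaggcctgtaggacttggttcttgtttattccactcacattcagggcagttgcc
P2rx4, chr5:122707294-122707543: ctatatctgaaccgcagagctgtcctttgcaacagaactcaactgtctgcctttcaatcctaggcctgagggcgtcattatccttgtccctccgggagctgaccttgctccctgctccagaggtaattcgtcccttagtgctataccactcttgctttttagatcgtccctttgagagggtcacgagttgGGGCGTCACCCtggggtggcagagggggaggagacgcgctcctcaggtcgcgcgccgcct
P2rx6, chr16:17561635-17561884: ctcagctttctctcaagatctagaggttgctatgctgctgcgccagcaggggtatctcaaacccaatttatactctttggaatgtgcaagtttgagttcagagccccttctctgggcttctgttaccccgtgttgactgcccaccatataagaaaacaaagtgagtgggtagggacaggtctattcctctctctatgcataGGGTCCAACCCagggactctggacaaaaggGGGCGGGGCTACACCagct
The AP-1 letters occurred in the first P2rx7 window alone among these 3, 249 to 243 bases before the start, and 6.75% of the 32851 promoters in the RefSeq table held them. The loose NF-κB letters were found in all 3 windows, as in 45.8% of all promoters, with matches on the plus and minus strand that overlap each other in P2rx4 and P2rx6. A GC box stood in the windows of P2rx7 and P2rx6, as in 32.7% of all promoters, and overlapped a loose NF-κB match in both. In P2rx7 that overlapping pair, 15 to 6 and 11 to 6 bases before the start, falls in the end of the window that an annotated transcript covers, which was searched but is not printed. Neither the composite site (3.45% of promoters) nor the cAMP response element (1.55%) was found in them. A match of letters is a description of the sequence and not evidence of binding.

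The family was led by P2rx4 in each of the 4 groups on the TPM scale, which corrects for transcript length and so allows genes to be set side by side. These levels count all transcripts of a gene, which for P2rx4 and P2rx7 too include some not annotated as protein-coding. In CPM, without that correction, P2rx7 stood above P2rx4 in proliferation medium (means of 23.1 against 14.5 CPM in controls and 31.9 against 19.1 CPM with 4HBP). In Proliferation_CTRL the levels were 14.03 ± 1.14 TPM for P2rx4, 11.8 ± 1.22 TPM for P2rx7, 2.74 ± 0.252 TPM for P2rx6, 0.330 ± 0.147 TPM for P2rx3 and 0.283 ± 0.101 TPM for P2rx5 (mean ± SD, n = 3). P2rx3 and P2rx5 overlapped in that order, and the other neighbours did not. In Differentiation_CTRL P2rx4 stood at 16.7 ± 0.410 TPM, followed by P2rx6 at 5.37 ± 0.573, P2rx7 at 3.02 ± 0.544 and P2rx3 at 0.695 ± 0.120 TPM (n = 2). P2rx7 and P2rx6 thus changed places between the media, and in Differentiation_4HBP the values of these 2 genes overlapped.

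**Figure D1:**
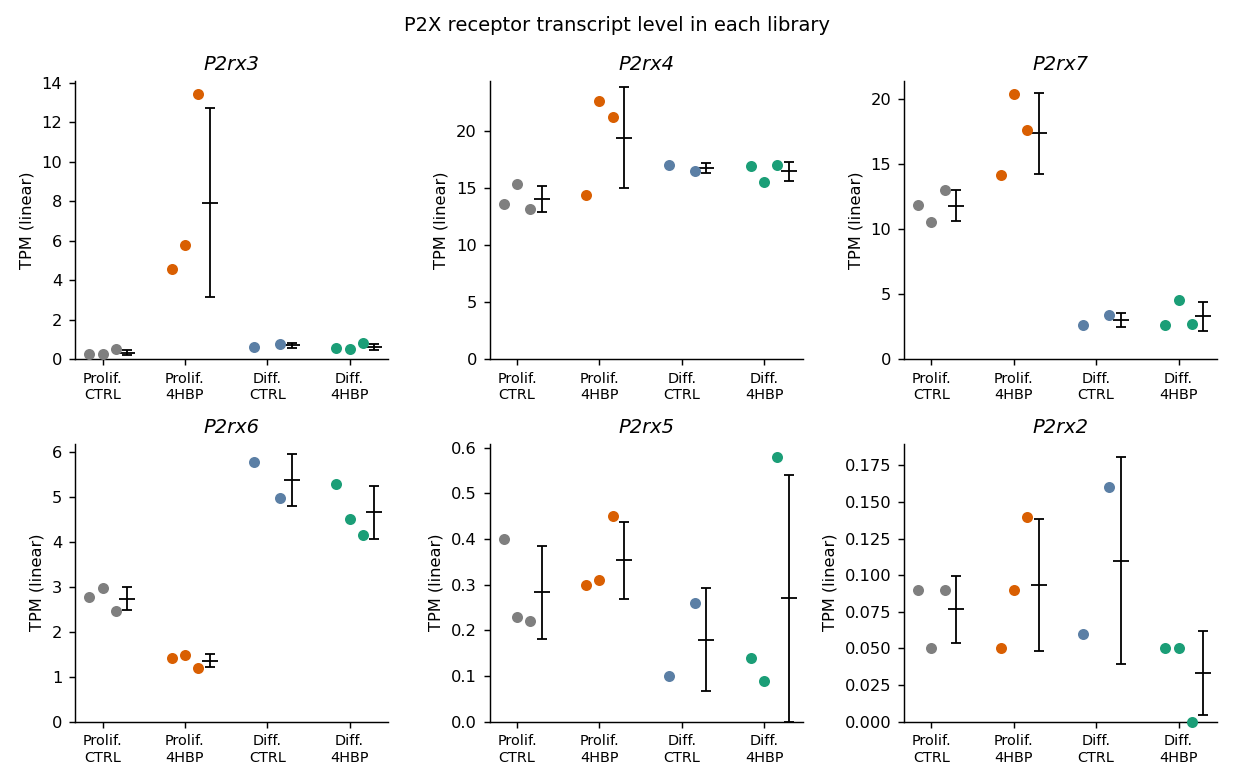
Level of 6 P2X genes in each library, in TPM on linear axes that differ between panels, with points for libraries and a bar for the mean ± SD of the group (n = 3, or n = 2 for differentiation controls, Diff. CTRL). The 3 P2rx3 values of proliferating cultures with 4HBP (4.56, 5.80 and 13.4 TPM) lie above all others of that gene, and P2rx7 is lower in all differentiation libraries than in all proliferation libraries. P2rx1, at 0 in every library, is not drawn.

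The order with 4HBP in proliferation medium was P2rx4 (19.4 ± 4.42 TPM), P2rx7 (17.4 ± 3.11 TPM), P2rx3 (7.93 ± 4.80 TPM), P2rx6 (1.36 ± 0.151 TPM) and P2rx5 (0.353 ± 0.0839 TPM), in which P2rx4 and P2rx7 overlapped (n = 3). P2rx3 made up 11.5% to 24.9% of the summed P2X TPM in these 3 libraries, against 0.817% to 1.70% in the 3 controls of the same medium. These values count all transcripts of the gene. With 4HBP, at least 42.2%, 43.6% and 30.1% of the P2rx3 molecules were assigned to transcripts annotated as non-coding, as described further on. The share and the rank of P2rx3 were therefore not shown for its coding transcripts alone. The summed level of the family was 34.8, 50.7 and 54.0 TPM with 4HBP and 28.9 to 29.5 TPM in the controls, and it lay between 25.2 and 26.2 TPM in the 5 differentiation libraries. All 7 genes had the same rank in every group by FPKM, RSEM's other measure per transcript length. Within a library FPKM and TPM differ by 1 common factor, so this is no check of the order.

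**Figure D2:**
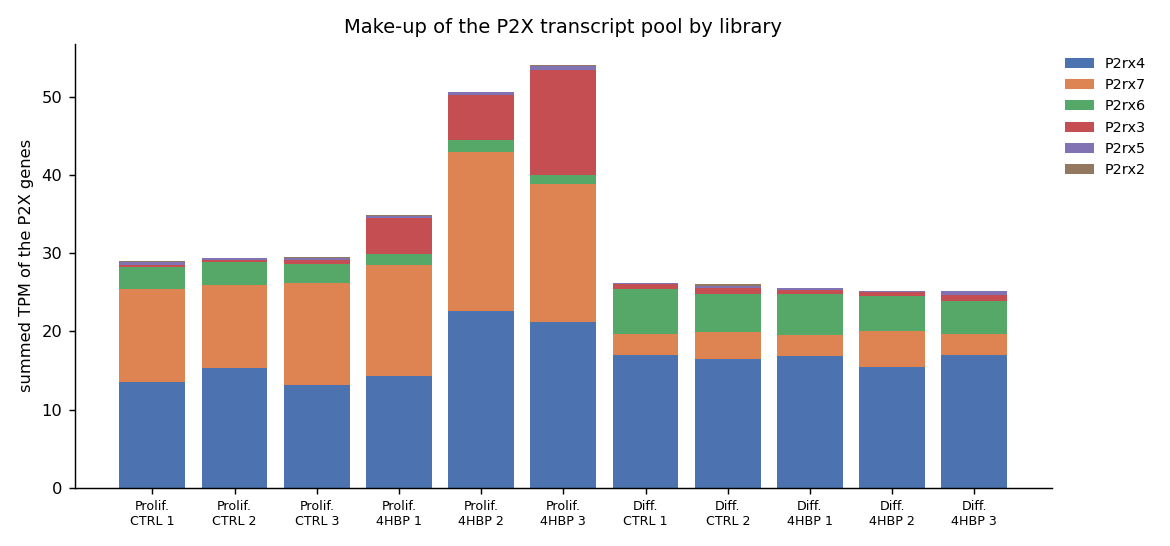
Summed TPM of the P2X genes in each library, as bars stacked by gene from 0 (Prolif., proliferation medium, and Diff., differentiation medium). The 3 Prolif. 4HBP bars, 34.8 to 54.0 TPM high, hold a P2rx3 segment of 11.5% to 24.9%, which is at most 3.14% in the other bars, and the 5 differentiation bars are of nearly equal height with P2rx4 as the largest segment. Each segment counts all transcripts of its gene, which for P2rx3 include those annotated as non-coding.

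P2rx3, the subunit of sensory neurons, was hardly expressed outside 1 group. Its expected counts in Proliferation_4HBP were 54, 66 and 173, which is 2.56, 3.14 and 8.30 CPM. In Proliferation_CTRL the counts were 6, 3 and 6, or 0.287, 0.143 and 0.287 CPM, at or within a few counts of the floor. The groups did not overlap, and library 3 with 4HBP carried more than the other 2 together. The fitted difference was 4.21 on the log2 scale (SE 0.50), 18.5-fold higher with 4HBP, and it was 3.54 without library 3 of Proliferation_4HBP. On the log2(CPM+1) scale, which compresses differences between low values, it was 2.06.

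P2rx7, the ATP receptor known from the inflammasome, was at 612, 671 and 726 counts (29.0, 31.9 and 34.8 CPM) in Proliferation_4HBP. Its controls had 485, 459 and 507 counts (23.2, 21.8 and 24.2 CPM). Every library with 4HBP was above every control, with a fitted difference of 0.43 (SE 0.08) on the log2 scale or 1.35-fold. Its neighbour P2rx4 had 336, 422 and 444 counts (15.9, 20.1 and 21.3 CPM) with 4HBP and 301, 301 and 308 counts (14.4, 14.3 and 14.7 CPM) in the controls. The P2rx4 groups did not overlap in CPM either, although library 1 with 4HBP stood close to the controls. In TPM they did overlap, with 14.35 TPM in library 1 with 4HBP and 15.32 TPM in control library 2. The log2 difference was 0.36 (SE 0.09) or 1.29-fold.

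P2rx6, the subunit that depends on partners, went the other way. It had 49, 49 and 39 counts (2.32, 2.33 and 1.87 CPM) in Proliferation_4HBP and 92, 101 and 84 counts (4.39, 4.81 and 4.01 CPM) in the controls, without overlap. The log2 difference was -1.05 (SE 0.17), 2.07-fold lower with 4HBP. No member was tested in this comparison. The groups did not overlap for all 4 members that passed the filter, in a comparison where they did not overlap in CPM for 30.0% of the genes tested and where 16.8% were called by edgeR (adjusted p under 0.05), and nothing is read from that count because the rule used this contrast.

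**Figure D3:**
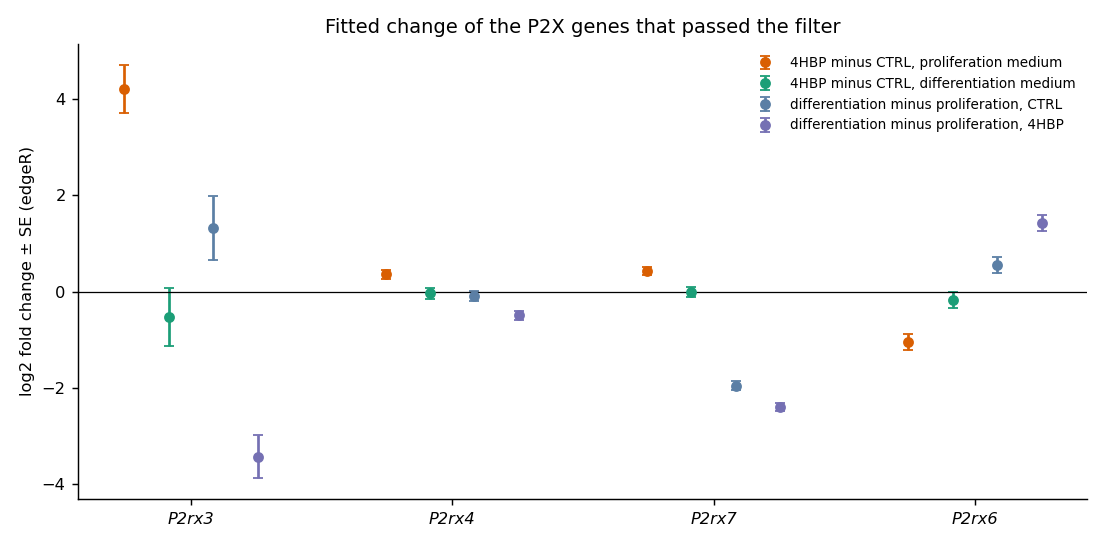
Fitted log2 fold change ± SE (edgeR, all 11 libraries) of the 4 P2X genes that passed the filter, in 4 comparisons that share libraries. P2rx3 (4.21), P2rx7 (0.43) and P2rx4 (0.36) lie above 0 and P2rx6 (-1.05) below 0 for 4HBP in proliferation medium, while the 4 values for 4HBP in differentiation medium lie between -0.53 and -0.01.

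The remaining members were near or under the floor. P2rx5 had 7, 7 and 9 counts in Proliferation_4HBP, 10, 5 and 7 in Proliferation_CTRL, 4, 2 and 7 in Differentiation_4HBP and 3 and 4 in Differentiation_CTRL, and these groups overlapped within each medium. P2rx2, a subunit that joins P2X3 in sensory neurons, had 0 to 3 counts in each library, so that no fold is given. P2rx1, known from platelets and smooth muscle, was at 0 in all 11 libraries, which allows a level of up to 0.128 to 0.144 CPM for each (3 counts, counting error only).

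The 12 markers of sensory neurons were looked at beside P2rx3. They summed to 16.99 to 21.4 TPM in Proliferation_4HBP and 6.15 to 14.3 TPM in Proliferation_CTRL, almost all of it from Prph, which encodes the intermediate filament peripherin (14.5 to 20.3 and 4.94 to 12.8 TPM). Scn10a and Mrgprd, which mark nociceptors, were at 0 in all 4 groups, 9 of 12 markers were above 0 with 4HBP and 8 of 12 in the controls. The sums of the 8 astrocyte and of the 10 NSC markers, given with the ectonucleotidases, were lower with 4HBP, though not every marker was. The part of any of these lists in the P2X values was not tested.

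The mean transcript length that RSEM reports for a gene, weighted by how much of each transcript it assigned, gives a view of P2rx3 that the fold change does not. It was 934, 922 and 1043 bases in the 3 Proliferation_4HBP libraries. Every coding transcript of P2rx3 is at least 1315 bases long, so these means require a share of molecules assigned to the 2 non-coding transcripts, whose shared exon is printed above. That share was at least 42.2%, 43.6% and 30.1%, and at most 78.2%, 79.2% and 68.4%, depending on which transcripts of each kind are taken. In Differentiation_CTRL the lengths were 1696 and 1764 bases, which allow at most 10.3% and 4.27% of the non-coding kind. Differentiation_4HBP lay between, with 1521, 1491 and 1190 bases. The Proliferation_CTRL libraries had 1764, 980 and 964 bases, from 6, 3 and 6 counts, too few to place that group. A length of 1764 bases is that of the coding transcript whose first exon, of 173 bases, lies within the span of Ssrp1. That gene, on the opposite strand, was at 108 to 238 TPM. As the strand setting of the counting is not given, reads of Ssrp1 among these few P2rx3 counts may not be told apart. These shares come from an assignment by RSEM among overlapping transcripts and have no counting interval, and whether the coding P2rx3 transcripts alone differed with 4HBP was not tested here. The paper reports that individual qPCR bore out its most changed genes in proliferation medium, and its primer list holds a pair for P2rx3. Which of the P2rx3 transcripts that pair reads was not checked here.

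**Figure D4:**
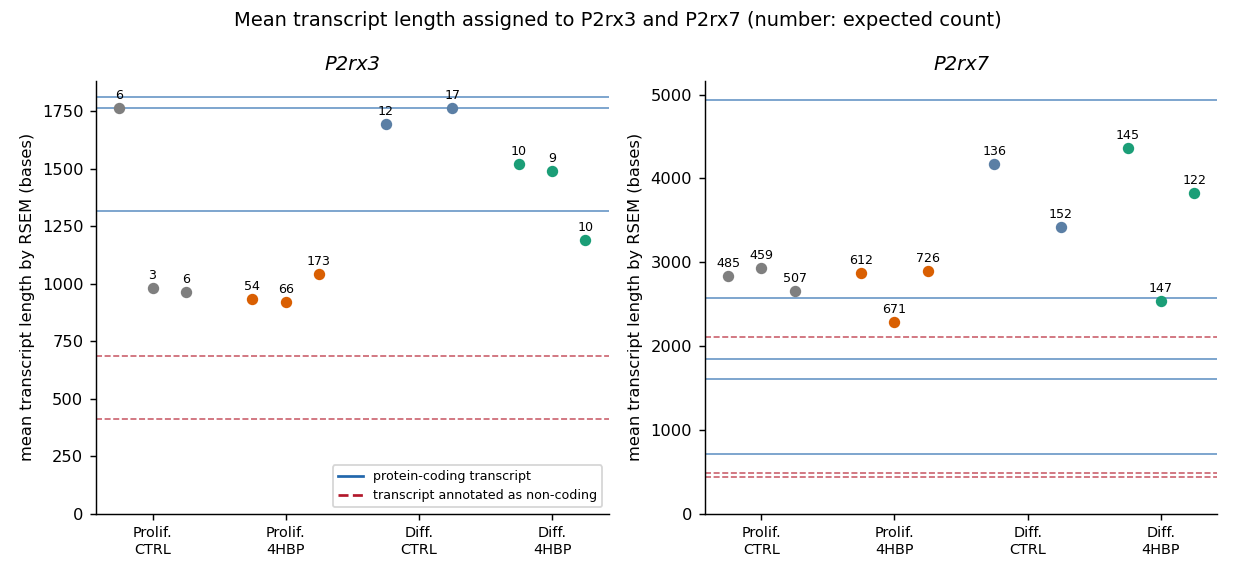
Mean transcript length that RSEM assigned to P2rx3 (left) and P2rx7 (right) in each library, in bases, with the expected count beside each point. Horizontal lines are the lengths of the annotated transcripts, solid for protein-coding and dashed for those annotated as non-coding or intron-retaining. The 3 P2rx3 points of proliferating cultures with 4HBP, at 922 to 1043 bases, lie under the shortest coding transcript (1315 bases).

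P2rx7 has 8 annotated transcripts, the longest of 4936 bases and the next of 2576. Its mean length was 2868, 2283 and 2895 bases with 4HBP and 2840, 2933 and 2657 bases without in proliferation medium, ranges that overlap. In differentiation medium it was 4361, 2534 and 3828 bases with 4HBP and 4170 and 3416 bases without. These 5 values require at least 75.6%, 0%, 53.0%, 67.5% and 35.6% of the molecules to be the longest transcript, against at least 0% to 15.1% in the 6 proliferation libraries. Because the mean length enters TPM, the P2rx7 level of Differentiation_4HBP library 2 (4.54 TPM) stood above the other 4 of that medium (2.60 to 3.40 TPM) although its CPM (6.34) did not.

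In differentiation medium the same dose of 4HBP left no detectable change in the family. P2rx3 had 10, 9 and 10 counts with 4HBP and 12 and 17 without (log2 difference -0.53, SE 0.59). P2rx7 had 145, 147 and 122 counts with 4HBP and 136 and 152 without (-0.01, SE 0.11). P2rx4 (-0.04, SE 0.11) and P2rx6 (-0.17, SE 0.16) were near 0 as well. None of the 4 members passed edgeR's quasi-likelihood test (Benjamini-Hochberg adjusted p = 1 for each), nor DESeq2 or limma, and none had an unadjusted p under 0.05. Of all genes tested 0% were called here by edgeR, with 644 at an unadjusted p under 0.05, and 5 genes by DESeq2. The share was 0.428% without the filter on low counts and 2.55% (395 of 15484 genes) when only the 5 libraries of that medium were fitted, and no member was called in either. The groups of P2rx3 and P2rx4 did not overlap in CPM, both lower with 4HBP, as was the case in either direction for 32.5% of all genes.

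Between the media, P2rx7 had the largest difference among the well-counted members. In control cultures it was 6.34 ± 0.199 CPM (SD, n = 2) in differentiation medium and 23.1 ± 1.18 CPM (n = 3) in proliferation medium, without overlap, a log2 difference of -1.95 (SE 0.10). Under 4HBP the difference was -2.39 (SE 0.09). P2rx3 differed by 1.31 (SE 0.66) in controls, where its counts were 12 and 17 against 6, 3 and 6, and by -3.42 (SE 0.45) under 4HBP. As P2rx3 and P2rx7 were picked in the proliferation libraries, these values are given without a test.

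P2rx6 and P2rx4 were tested between the media with edgeR's quasi-likelihood test. P2rx6 rose in control cultures from 92, 101 and 84 to 161 and 148 counts, by 0.54 on the log2 scale (SE 0.17, adjusted p = 0.0129), with no overlap in CPM. That call was lost without Differentiation_CTRL library 1 (log2 difference 0.44, edgeR adjusted p = 0.115). P2rx4 did not pass, with 301, 301 and 308 counts against 321 and 335 (log2 difference -0.09, SE 0.11, edgeR adjusted p = 0.495). So 1 of the 2 members tested was called, where 61.4% of all genes were.

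Under 4HBP both moved between the media. P2rx6 rose by 1.42 (SE 0.17, edgeR adjusted p = 6.3e-06), from 49, 49 and 39 to 153, 134 and 112 counts. P2rx4 fell by 0.49 on the log2 scale (SE 0.09, edgeR adjusted p = 0.000469), from 336, 422 and 444 to 315, 317 and 294 counts. Its counts were whole in proliferation medium and not in differentiation medium (315.3, 317.29 and 293.83 before rounding), where some fragments were shared out between genes. Both of the 2 members tested were called here, where 67.2% of all genes were. The proliferating cultures of this comparison are the libraries in which P2rx3 and P2rx7 were picked. The marker sums of the oligodendrocyte lineage and NSCs given above moved with the medium, and their part in these differences was not tested.

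The genes around the members did not all move with them. Ssrp1, which encodes a histone chaperone subunit, overlaps the 5′ end of P2rx3 by 229 bases on the opposite strand and had a log2 difference of -0.00 (SE 0.09, edgeR adjusted p = 0.993) with 4HBP in proliferation medium. Tnks1bp1, 10560 bases from P2rx3, rose by 0.53 (edgeR adjusted p = 0.000515). Camkk2, a calcium-dependent kinase kinase 1432 bases past P2rx4, rose by 0.57 (edgeR adjusted p = 0.0109). The annotated span of Slc7a4 overlaps that of P2rx6 by 5783 bases on the opposite strand, and Slc7a4 had a difference of -0.52 (edgeR adjusted p = 0.104). That overlap comes from a P2rx6 transcript reaching to 17577800, which was not among the transcripts counted. The P2rx6 transcript matched among those counted ends at 17572011, before Slc7a4 starts at 17572018 in vM21. Since the sources do not give the strand setting of the counting, reads of P2rx3 and Ssrp1 may not be told apart. Lrrc74b, 638 bases from P2rx6, differed by -0.43 (edgeR adjusted p = 0.513) with 4HBP and rose by 2.38 in differentiation medium in controls (edgeR adjusted p = 4.28e-05).

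Around the members that did not pass the filter, Pole (-0.77, edgeR adjusted p = 0.0150) and Fbrsl1 (-0.62, edgeR adjusted p = 0.00133) beside P2rx2 and Tax1bp3 (-0.39, edgeR adjusted p = 0.0229) beside P2rx5 fell with 4HBP in proliferation medium. Camkk1 beside P2rx1 (-0.52) and Emc6 (-0.03) and Ctns (-0.16) beside P2rx5 did not pass (edgeR adjusted p = 0.103, 0.843 and 0.316). Prg2 and Prg3 beside P2rx3 and Lrcol1 beside P2rx2 were at 0 TPM throughout, and Itgae and Atp2a3 stayed at or under 0.3 TPM. Atp2a3, beside P2rx1, did not pass the filter. It had 2, 4 and 20 counts with 4HBP in proliferation medium and 0 in each control of that medium.

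Among the other genes of ATP and adenosine signaling, the cultures with 4HBP in proliferation medium had lower levels of 3 enzymes that break down ATP and its products (Entpd1, Entpd2 and Alpl). Of 42 genes in 6 lists, 28 passed the filter and 8 were called by edgeR, 2 higher and 6 lower. That is 28.6%, where 16.8% of all genes were called, and the median log2 difference of the 28 genes was 0.00 beside -0.00 for all genes. With limma on log2(CPM+1) none of the 8 calls was kept.

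Of the ectonucleotidases, 3 of the 6 tested fell and none rose. The summed markers of astrocytes (1689 to 2153 against 2413 to 2986 TPM) and of NSCs (4289 to 4666 against 4742 to 5005 TPM) were lower in these cultures with 4HBP as well, without overlap, as were Gfap (736 to 951 against 1165 to 1418 TPM) and Aqp4 (116 to 158 against 196 to 237 TPM). Among single NSC markers, Mki67 was lower too (22.0 to 41.7 against 43.1 to 54.7 TPM). Nes (113.5 to 176 against 98.6 to 150 TPM) and Sox2 (213 to 240 against 222 to 236 TPM) overlapped. The part of these markers in the values of Entpd1, Entpd2, Alpl, Gja1 and Adk was not tested. Entpd2, which turns ATP into ADP and had the highest TPM of its list as a mean over all 11 libraries, though not in proliferation medium, went from 80.7, 115 and 68.0 counts to 19.0, 56.0 and 45.7, a log2 difference of -1.16 (SE 0.30, edgeR adjusted p = 0.0185). That call was lost without Proliferation_CTRL library 2 (log2 difference -0.92, edgeR adjusted p = 0.0870) and when only the 2 groups were fitted (edgeR adjusted p = 0.0822). Alpl, the alkaline phosphatase that removes phosphate down to adenosine, fell by 1.09 (SE 0.15, edgeR adjusted p = 0.000624). Entpd1, or CD39, fell by 0.68 (SE 0.12, edgeR adjusted p = 0.00282). Nt5e, or CD73, which makes adenosine from AMP, was at 11, 14 and 23 counts with 4HBP and 6, 5 and 13 without, and did not pass (edgeR adjusted p = 0.0978).

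The channels through which ATP leaves cells were divided. Gja1, which encodes connexin 43 and had the highest TPM of its list, fell by 0.85 (SE 0.11, edgeR adjusted p = 0.000563), from 8973, 11091 and 7922 counts to 5307, 4485 and 6152. Lrrc8a, the essential subunit of the volume-regulated anion channel, rose by 0.34 (SE 0.08, edgeR adjusted p = 0.0120), a call lost when only the 2 groups were fitted (edgeR adjusted p = 0.0603). Panx2 rose by 0.91 (SE 0.28, edgeR adjusted p = 0.0427) from 35, 20 and 24 to 37, 62 and 53 counts, and this call lay so near the threshold that it was lost without any 1 of 9 of the 11 libraries. Panx1, the pannexin that opens downstream of P2X7, differed by -0.07 (SE 0.12, edgeR adjusted p = 0.772).

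Adk, the kinase that removes adenosine inside cells, was the 1 of 6 genes of adenosine uptake and clearance to be called, and it fell by 0.52 (SE 0.10, edgeR adjusted p = 0.00404). No receptor was called among the 4 P2Y and 3 adenosine receptors tested. P2ry1, the Gq-coupled ADP receptor with the highest P2Y level, was at 15.8 ± 4.03 CPM with 4HBP and 18.1 ± 0.465 CPM without (SD, n = 3), and Adora1, the inhibitory adenosine receptor, at 163 ± 34.5 and 164 ± 16.6 CPM.

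Of the 8 genes listed for the inflammasome and its cytokines, 4 did not pass the filter. Il1b was at 0 in all 11 libraries, and Nlrp3, Pycard and Gsdmd had at most 6, 10 and 7 counts. Il18, a cytokine that caspase-1 processes, was the 1 of 4 genes called and fell by 1.08 (SE 0.11, edgeR adjusted p = 0.000105), from 730, 773 and 570 counts to 358, 328 and 315. Casp1 had 0.63 (SE 0.24) and did not pass (edgeR adjusted p = 0.0883). Nek7, the kinase that binds NLRP3 and with the second highest mean TPM of this list, differed by 0.15 (SE 0.08, edgeR adjusted p = 0.218).

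**Figure D5:**
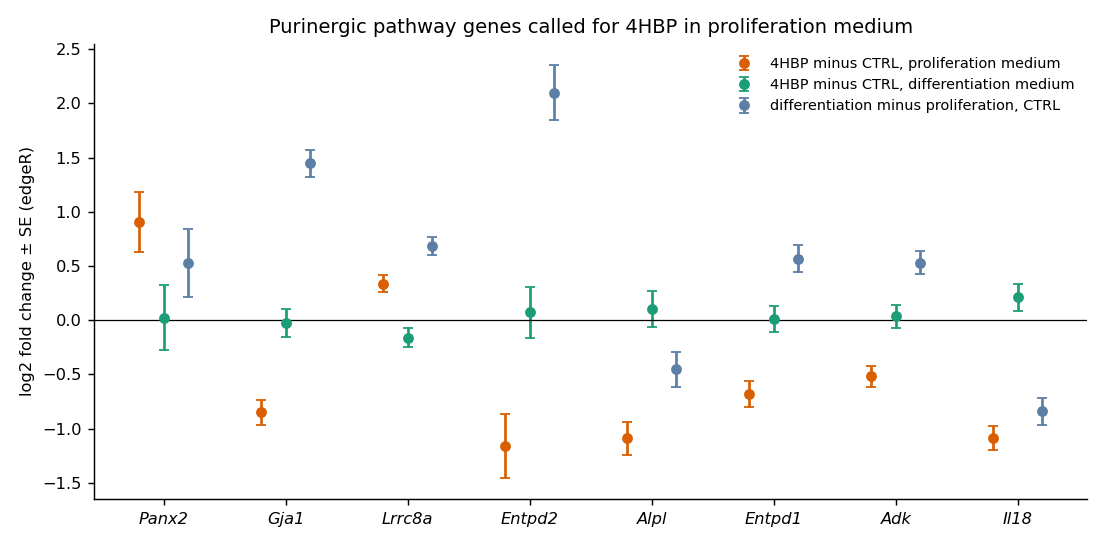
Fitted log2 fold change ± SE (edgeR) of the 8 purinergic pathway genes called for 4HBP in proliferation medium, with the values of the same genes for 4HBP in differentiation medium and for differentiation against proliferation medium in controls. Panx2 and Lrrc8a are above 0 and the other 6 below 0 for 4HBP in proliferation medium, whereas the values for 4HBP in differentiation medium lie between -0.16 and 0.21.

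In differentiation medium none of the 28 genes was called for 4HBP by edgeR or DESeq2 over all libraries or by limma, and none had an unadjusted p under 0.05 in edgeR. When only the 5 libraries of that medium were fitted, 1 of 25 genes tested, Adora1, was called, where 2.55% of all genes were.

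The change of medium reached most of these genes in the control cultures. Of the 28 genes, 19 were called, 11 higher and 8 lower in differentiation medium, which is 67.9% where 61.4% of all genes were called, with a median log2 difference of 0.41 beside 0.03 over all genes. Nt5e had the largest rise of the 28, from 6, 5 and 13 to 221 and 254 counts (4.67, SE 0.28, edgeR adjusted p = 2.1e-08). Entpd2 (2.10), Gja1 (1.45), Lrrc8a (0.68), Entpd1 (0.57), Panx1 (0.38) and the low-count Calhm2 (2.59) rose too. Enpp3 fell by 3.13 and Alpl by 0.45. The Panx1 call was lost without Proliferation_CTRL library 2 or 3 or either Differentiation_CTRL library (edgeR adjusted p between 0.0799 and 0.146).

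Receptors and clearance genes split between the directions. P2ry1 rose by 1.70 (SE 0.12, edgeR adjusted p = 1.3e-07), to 62.5 ± 2.16 CPM (SD, n = 2), and Adora2a, which couples to cAMP, rose by 2.51 from 2 to 5 counts to 22 and 23. P2ry12, best known from microglia, fell by 1.90 (edgeR adjusted p = 0.000882), from 35 to 70 counts to 13 and 19, and Adora1 fell by 0.74. Slc29a1 and Slc29a2, the equilibrative nucleoside transporters, moved apart by -0.99 and 0.91, and Adk rose by 0.53. Il18 fell by 0.84 and Casp1 by 1.27, and Casp4 went from between 2 and 16 counts to 0 in both libraries. The Casp4 call was lost without Proliferation_CTRL library 2 or either Differentiation_CTRL library (edgeR adjusted p between 0.0678 and 0.0778).

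The genes whose pattern over the 11 libraries was most like that of the members were listed by the root mean square difference of centred log2 CPM. P2rx3 and P2rx7 were picked in the proliferation libraries, which enter this measure, so the lists are a description from which nothing is read. For P2rx3 these were Cyb5r1 (0.42), Kcnt2 (0.44), Ostn (0.44), Cxcl10 (0.45) and Gdf15 (0.46). They had log2 differences of 2.86 (Cyb5r1) to 7.51 (Ostn) with 4HBP in proliferation medium, the comparison by which P2rx3 was picked. Cyb5r1, the closest, averaged 51.3 CPM in Proliferation_4HBP, 6.84 in Proliferation_CTRL and 8.28 and 10.4 in Differentiation_4HBP and Differentiation_CTRL. In the same order, Kcnt2 averaged 3.84, 0.334, 0.666 and 0.606 CPM, and Ostn 1.05, 0, 0.0160 and 0 CPM. Cxcl10, a chemokine of the interferon response, averaged 5.79 CPM in Proliferation_4HBP, 0.461 in Proliferation_CTRL and 0.816 and 0.776 in Differentiation_4HBP and Differentiation_CTRL. Gdf15, a secreted stress-response factor, averaged 7.09, 0.843, 1.15 and 1.17 CPM in the same order. Library 3 of Proliferation_4HBP was the highest for P2rx3 and for Cxcl10, with 173 and 251 counts.

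P2rx7 was closest to Prrx1 (0.13), Mtbp (0.14), Shc4 (0.15), Igf2bp2 (0.15) and Zic1 (0.16). Prrx1, a homeobox factor, averaged 99.9 and 64.2 CPM with and without 4HBP in proliferation medium and 20.1 and 20.3 CPM in differentiation medium. P2rx4 was closest to Ercc5 (0.06), Ncoa3 (0.06), Snapc4 (0.07), Rnaset2b (0.07) and Zbtb18 (0.07), whose small differences go with the narrow range of P2rx4 itself. With log2(CPM+1) in place of log2 CPM, 3 of the 5 genes for P2rx3, 3 of 5 for P2rx7 and 5 of 5 for P2rx4 were again among the closest.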

How the data were processed

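Total RNA of 11 NSC cultures was sequenced as poly(A)-selected, stranded libraries (TruSeq, paired reads). Per the study's methods and the submitters' processing notes, the authors trimmed reads with cutadapt and quantified genes with RSEM 1.3.0 and Bowtie2 2.2.9 on mm10 (GRCm38) with GENCODE vM17, and the strand setting is not given in the sources used here. The deposited tables hold expected counts (not normalized), TPM and FPKM (both normalized by the authors with RSEM for length and depth), and transcript lengths. Symbols and positions came from GENCODE vM21 by gene identifier (99.7% of 53801 genes matched).

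After rounding, expected counts were filtered by group (filterByExpr), scaled by TMM and tested in edgeR 4.0.16 (R 4.3.3, glmQLFit and glmQLFTest), using 4 group means over all 11 libraries and Benjamini-Hochberg adjustment over 15920 genes. SE is the absolute log2 fold change divided by the square root of F. CPM (counts scaled to a common library total) were taken from the expected counts. The study itself used limma on log2(CPM+1), which is among the alternatives here, with DESeq2 1.42.0, library totals, no filter, fitting only the groups compared, a block for the replicate number, and omission of each library. On simulated counts with 15920 genes, 85.0% of 2-fold changes were recovered for 4HBP in proliferation medium and 89.8% in differentiation medium. Of the genes called in these simulations, 3.7% and 7.61% had not been changed. The simulated spread between replicates was fixed at the same value for every gene and library. It was not taken from these data, so the figures are a check of the code and not the power of these comparisons. Members and gene lists were chosen with earlier results of these data known. Named are all members, per list and comparison up to 4 called genes with the largest change and the gene of highest mean TPM, protein-coding neighbours within 20 kb, and the 5 genes of most similar pattern. Nt5e with 4HBP, Casp1, Nek7, Panx1, Nlrp3, Pycard, Gsdmd, Il1b and the remaining pathway genes given by value were named after their values were seen. The test of the difference between media and its alternatives were added after the data were seen.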

Additional observations from a re-analysis of the deposited data

Results flagged for a closer look

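The effect of 4HBP differed between the media for 6 genes of the purinergic lists by a test of the difference itself (edgeR, quasi-likelihood, 11 libraries) that called 4.49% of all genes. The effect in proliferation minus that in differentiation medium was -1.30 on the log2 scale for Il18 (edgeR adjusted p = 0.00201), -1.19 for Alpl (0.0114), -0.82 for Gja1 (0.0187), 0.50 for Lrrc8a (0.0322), -0.69 for Entpd1 (0.0421) and -0.55 for Adk (0.0491). Il18 was the 1 of these calls that held with each library left out and with each other tool and setting run, whereas Alpl was lost without either Differentiation_CTRL library (edgeR adjusted p = 0.0902 and 0.0504), Gja1 without any 1 of 5 libraries, all in differentiation medium (0.0508 to 0.104), Lrrc8a without any 1 of 7 (0.0598 to 0.160), and Entpd1 and Adk each without any 1 of 8 (0.0645 to 0.217 and 0.0655 to 0.225). These 5 were also lost by limma on log2(CPM+1), and Entpd1 with library totals (edgeR adjusted p = 0.0621) and under a replicate block (0.0685). The share of all genes called fell to 0.753% and 0.752% without Differentiation_CTRL library 1 and 2. For each of the 6, the 3 libraries with 4HBP in proliferation medium lay outside the range of their 3 controls in CPM, as for 30.0% of all genes tested. Nothing is read from this, because the same libraries entered the test that called these 6 genes.

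In CPM, P2rx3 and P2rx4 were higher in all 3 libraries with 4HBP than in all 3 controls of proliferation medium. In differentiation medium they were lower in all 3 libraries with 4HBP than in both controls. Groups did not overlap in CPM, in either direction, for 30.0% and 32.5% of all genes in these 2 comparisons. In TPM, P2rx4 overlapped in both media and P2rx3 in differentiation medium. The 4HBP effects in the 2 media differed by 4.74 for P2rx3 and 0.40 for P2rx4 on the log2 scale. That difference was not tested, because the members were chosen on the first of the 2 comparisons, and in differentiation medium neither gene passed the test by itself. No group had the 4 or more libraries that a check for a library far from the others needs.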

How the results depend on the processing

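Each comparison of 2 groups was recomputed under 17 alternatives, except that Casp4 did not pass the filter when only the control groups were fitted, and no called result changed sign in them. The 6 differences between media were recomputed under 16, since they need all 4 groups, and kept their sign. Of the recomputed values, 829 kept their direction and their side of the threshold or stayed within the replicate spread, 73 calls of single genes lost significance and 16 values moved. The 829 include the order of the members by FPKM in each of the 4 groups, which is no check for the reason given above. The P2rx3 difference for 4HBP in proliferation medium was 2.06 on the log2(CPM+1) scale, which compresses low values by construction, and 3.54 to 4.49 with 1 library left out, the lowest without library 3 of Proliferation_4HBP. Of the other P2X members, the count called between media in controls was 0 to 1 with 1 library left out. The 8 pathway calls for 4HBP in proliferation medium became 0 by limma on log2(CPM+1), which called 67 of 27295 genes in all, and 5, all lower, when only the 6 proliferation libraries were fitted, where 7.43% of all genes were called (1074 of 14449) instead of 16.8%. For 4HBP in differentiation medium, 1 pathway gene was called when only that medium was fitted (2.55% of all genes). The causes were not tested.

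Same-numbered libraries did not deviate together (correlations between -0.0612 and 0.0180), so the numbers were not taken as pairs. With the replicate number as a block, 7 pathway genes instead of 8 were called for 4HBP in proliferation medium, 18 instead of 19 between the media in controls, and the members' calls were as before (0, 1 and 2). Leaving out 1 library gave 7 to 9 pathway calls for 4HBP in proliferation medium and 16 to 20 between media. TMM in place of library totals moved the median over all genes between media from 0.11 to 0.03. Depth limits P2rx1, P2rx2 and P2rx5, and the P2rx3 controls.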
